A study of Oryza sativa with 16 samples.

Results

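The canonical histone H4 genes of rice were followed through 16 RNA-seq libraries. The 10 genes are a list given by identifier, out of 31400 annotated genes with a value. The deposited tables pair no identifier with a protein, so that the members are H4 genes rests on the list and was not checked against sequence. The study counts fewer canonical H4 genes than the list holds, and which listed gene it leaves out is not known. H4 is one of the core histones around which DNA is wrapped in the nucleosome. Plants carry several H4 genes whose products are the same or almost the same protein, and most histone genes are expressed chiefly while DNA is replicated, so that dividing tissues hold the most of their mRNA. H4 forms a dimer with H3, and acetylation of lysines in its N-terminal tail accompanies open chromatin. H4.V, the variant that the study perturbed, is an H4-like protein with a divergent tail and is not a member of the list.

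All plants were *Oryza sativa* indica, cultivar Pusa Basmati 1. Leaves of mature plants came from OE-H4.V, OE-H4.Vs, OE-H4 and WT, where OE stands for a coding sequence driven by the maize Ubiquitin promoter and H4.Vs is the N-terminal part of H4.V fused to the C-terminal part of H4. Seedlings labelled 20 days old came from h4.v KO, a Cas9-made loss of function line free of the T-DNA, and from WT, each grown with 120 mM NaCl in the medium or without it. The study states a younger age than this label for the seedlings used for RNA, so their age is uncertain. The OE plants were regenerated from transformed calli under hygromycin, and the WT leaves carry no transgene. Each of the 8 groups had 2 libraries of poly(A) RNA, whose labels do not say whether they came from separate plants, so that the spread between them may be technical. Levels are FPKM, fragments scaled by the length of a locus and by the mapped fragments of the library, made by the authors with Cufflinks for each library on its own. Total counts are not used here, and the relative depth, derived from the width of Cufflinks' intervals, ran from 0.545 to 1.20 with WT seedling replicate 1 set to 1. In bulk tissue, fewer dividing cells and less H4 mRNA in each cell cannot be told apart.

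All 10 genes were found in the tables, on 8 chromosomes of the IRGSP1.0 build. Os01g0835900 lies at 1:35840539-35841246, Os02g0684500 at 2:27994105-27994677, Os03g0119900 at 3:1080801-1081326 and Os04g0583600 at 4:29488964-29489557. Os05g0462700 lies at 5:22736693-22737282 and Os05g0466600 at 5:22903115-22903786. Os07g0549900 lies at 7:21827202-21827703, Os09g0433600 at 9:15916011-15916479, Os09g0553100 at 9:21912086-21912668 and Os10g0539500 at 10:21019357-21019902. H4.V lies between the pair on chromosome 5, at 5:22743760-22744188, 6477 bp beyond Os05g0462700 and 158926 bp before Os05g0466600. The intervals are annotated gene loci, and exons and UTRs within them were not resolved here.

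H4.V itself checks the labels in part. It was listed at 0 in all seedling libraries, WT included, so its loss in h4.v KO could not be seen in these values. The study detected its mRNA by RT-PCR and amplified it from seedling cDNA, so 0 here does not show that it was not expressed. In OE-H4.V leaves an assembled locus within the gene had 4785 and 4492 FPKM and covered 70.4% of it. Weighted by that share, as the values of the members are, H4.V had 3369 and 3162 FPKM there. H4.V was listed at 0 in the other 6 leaf libraries, those of OE-H4.Vs included, whose label gives a fusion that holds part of it. Whether reads of that fusion would be assigned to the H4.V gene was not tested, so the 0 there does not check the OE-H4.Vs label. No canonical H4 gene reached a level of that size in OE-H4 leaves, where the highest member had 300.2 and 299 FPKM. Whether reads of the OE-H4 transgene were assigned to any listed H4 gene is not known.

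Nearly all of the canonical H4 signal came from Os09g0553100 and Os10g0539500. Os09g0553100 averaged 206 FPKM over the 16 libraries and Os10g0539500 averaged 30.2 FPKM, whereas no other member exceeded 5.16 FPKM in any library. Os05g0462700 was listed at 0 in all 16 libraries. Os04g0583600 averaged 1.08 FPKM, Os01g0835900 0.756 FPKM, Os03g0119900 0.429 FPKM and Os07g0549900 0.260 FPKM. Os05g0466600, Os02g0684500 and Os09g0433600 followed with means of 0.111, 0.0967 and 0.0285 FPKM. Over the 16 libraries, the range of each gene overlapped that of its neighbour in this order, Os09g0553100 and Os10g0539500 included.

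Os09g0553100 had 375 and 413 FPKM in OE-H4.V leaves, 201 and 547 FPKM in OE-H4.Vs leaves and 300.2 and 299 FPKM in OE-H4 leaves, against 3.38 and 3.92 FPKM in WT leaves. In seedlings it had 188 and 201 FPKM in h4.v KO with salt, 117 and 185 FPKM in h4.v KO without salt and 198 and 190 FPKM in WT with salt. The WT seedlings without salt had 75.9 FPKM in replicate 1 and 0.382 FPKM in replicate 2. Os09g0553100 was therefore high in every library except both WT leaf libraries and 1 of 2 unstressed WT seedling libraries.

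Os10g0539500 had 1.76 and 150 FPKM in h4.v KO seedlings with salt and 124 and 120 FPKM in h4.v KO seedlings without salt. In WT seedlings it had 1.45 and 1.42 FPKM with salt, against 71.3 and 0.648 FPKM without salt. All 8 leaf libraries lay between 0.786 and 2.87 FPKM. The gene was thus at least at 71.3 FPKM in 4 seedling libraries and at most at 2.87 FPKM in the other 12, and the replicates of h4.v KO with salt and of WT without salt fell on opposite sides of this gap.

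**Figure D1:**
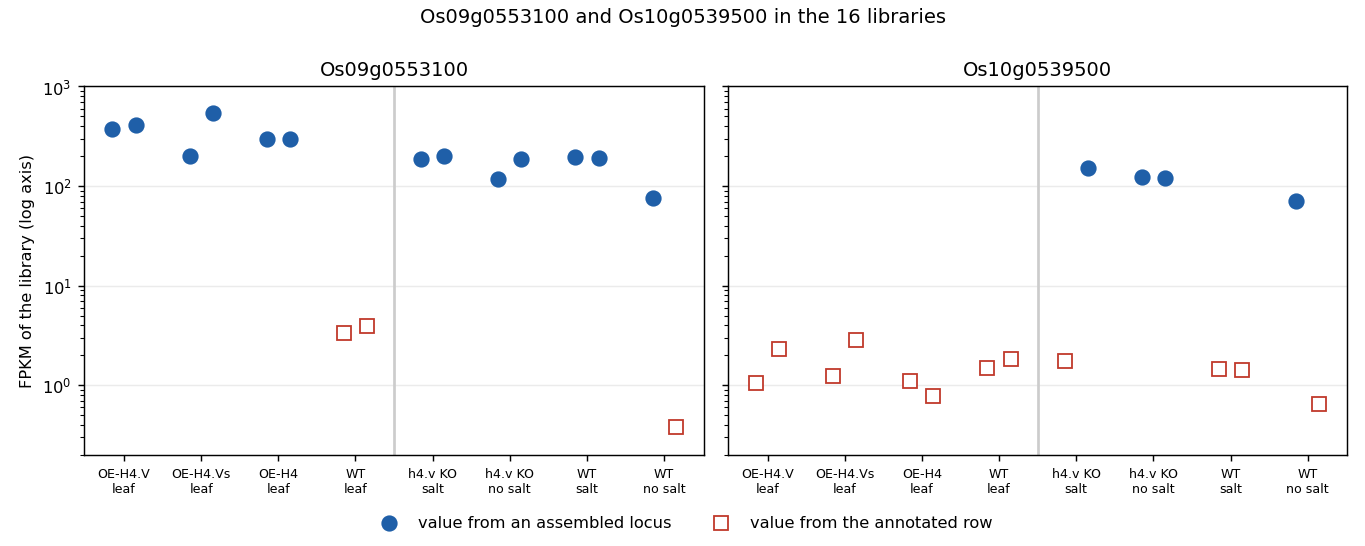
FPKM of Os09g0553100 (left) and Os10g0539500 (right) on a log axis, 1 point per library, with leaf groups left of the grey line and seedling groups right of it. Filled circles are values from a locus that Cufflinks assembled in that library and open squares are values from the annotated row, and every circle lies at 71.3 FPKM or above while every square lies at 3.92 FPKM or below.

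The gap followed the kind of row that carried the value. Each table holds annotated gene rows and, beside them, loci assembled from that library alone. An assembled locus covered Os09g0553100 in 13 libraries and Os10g0539500 in 4 libraries, and in all 17 of these cases the annotated row of the gene was listed at 0. The loci began 85 to 194 bp before the annotated start, 67.3 to 86.5% of their length lay in the gene, and 443 to 1403 fragments stood behind each value. Where no such locus was listed, the value came from the annotated row and from few fragments: 17 and 22 for Os09g0553100 in WT leaves and 4 in WT seedling replicate 2. The lowest value with an assembled locus was 19.3 times the highest without one for Os09g0553100 and 24.8 times for Os10g0539500.

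Many other genes showed the same gap. Of 3294 genes that reached 50 FPKM in a library, 811 had an assembled locus in 1 to 15 of the 16 libraries. In 716 genes, 21.7% of the 3294, every library with an assembled locus was more than 10 times above every library without one. Within unstressed WT seedlings, 74 of 1882 genes (3.93%) that reached 50 FPKM in 1 replicate were under 5 FPKM in the other, and 70 of the 74 had an assembled locus only in the higher library. The share of such genes was 3.06 to 4.60% over the 8 groups. How much of the gap of the H4 genes comes from the listing of loci rather than from RNA levels was not tested. The treatment of reads that map to several H4 copies is not given in the sources used here, so the split of reads between near-identical members is uncertain.

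Summed over the 10 genes, the canonical H4 level was 376 and 417 FPKM in OE-H4.V leaves, 202 and 551 FPKM in OE-H4.Vs leaves and 302 and 300.0 FPKM in OE-H4 leaves, against 5.35 and 6.29 FPKM in WT leaves. In h4.v KO seedlings it was 198 and 361 FPKM with salt, against 241 and 306 FPKM without salt. In WT seedlings it was 208 and 201 FPKM with salt, against 148 and 1.56 FPKM without salt. Os09g0553100 held 99.1 to 99.6% of the sum in the OE leaves. In the 3 unstressed seedling libraries with a high sum, Os09g0553100 held 48.3 to 60.6% and Os10g0539500 held 39.1 to 51.2%. In the WT seedlings with salt Os09g0553100 held at least 94.6%, and Os10g0539500 had no assembled locus there. With the stricter rule that 80% of a locus fall inside the gene, the mean sum was 2.49 FPKM in OE-H4.V, 2.78 FPKM in OE-H4.Vs and 1.44 FPKM in OE-H4 leaves, against 5.82 FPKM in WT leaves, and 0.946 FPKM in h4.v KO seedlings without salt, against 39.3 FPKM in WT seedlings without salt.

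**Figure D2:**
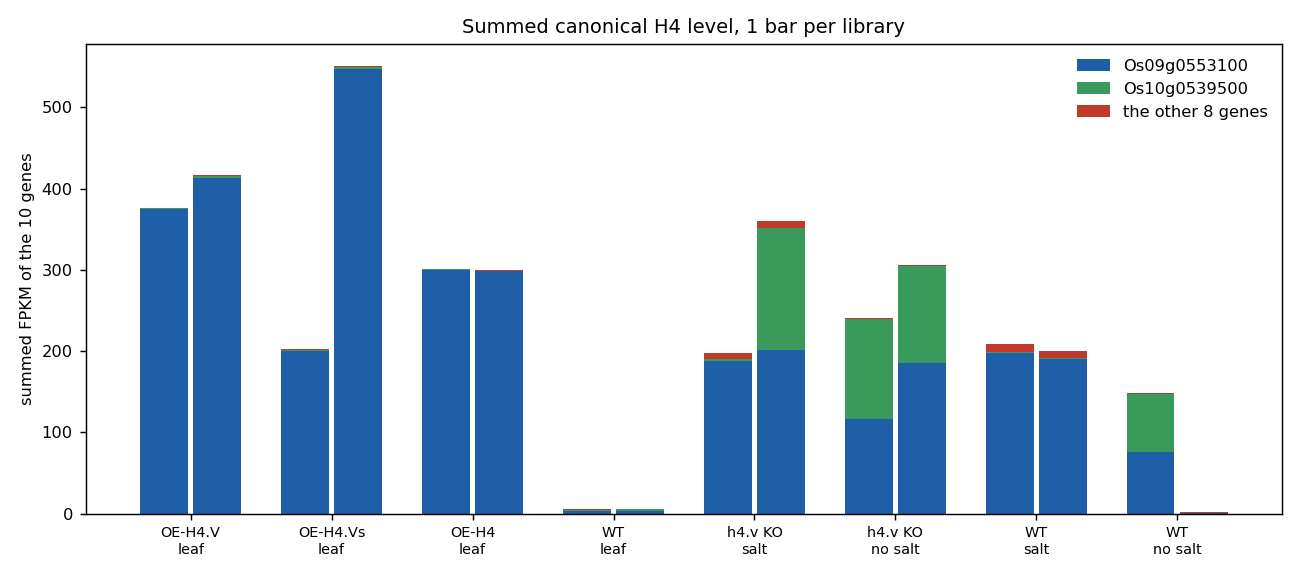
Summed FPKM of the 10 canonical H4 genes, 1 bar per library, with the leaf groups first and the seedling groups after them, stacked by Os09g0553100 (blue), Os10g0539500 (green) and the other 8 genes (red). Both WT leaf bars and 1 bar of WT without salt lie at 6.29 FPKM or below, and the other 13 lie at 148 FPKM or above.

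The salt comparison asked how H4 genes behave when seedlings grow on 120 mM NaCl. Os04g0583600 and Os01g0835900, both at low levels, were higher with salt in both genotypes. Os04g0583600 had 4.02 and 5.16 FPKM in WT seedlings with salt, against 0.347 and 0 FPKM in WT seedlings without salt. In h4.v KO seedlings it had 3.54 and 3.59 FPKM with salt, against 0.241 and 0.348 FPKM without salt. Salt and no salt did not overlap in either genotype, and the gene was listed at 0 in all 8 leaf libraries. The values rest on 64 fragments in WT with salt against 3 without, and on 59 against 5 in h4.v KO. Relative depth was 0.737 and 0.848 in WT with salt, against 1 and 1.20 without, and 1.06 and 0.884 in h4.v KO with salt, against 0.924 and 0.954 without.

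Os04g0583600 rose with salt by 2.26 ± 0.20 on the log2(FPKM + 1) scale in WT (SE, n = 2 against 2; 95% interval 1.76 to 2.76; limma, p-values adjusted by Benjamini-Hochberg across every gene tested, adjusted p = 0.000581). In h4.v KO it rose by 1.82 ± 0.20 (95% interval 1.32 to 2.32; limma with Benjamini-Hochberg adjustment, adjusted p = 0.00163). The median over all genes was 0.073 in WT and -0.11 in h4.v KO. Adding 1 FPKM understates changes of genes as low as Os04g0583600. The salt effect in h4.v KO minus that in WT was -0.44 ± 0.28, with a 95% interval from -1.15 to 0.26, and did not pass the test (limma, adjusted p = 0.329).

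Os01g0835900 had 2.85 and 1.78 FPKM in WT seedlings with salt, against 0.255 and 0.0698 FPKM without salt. In h4.v KO seedlings it had 1.78 and 1.84 FPKM with salt, against 0.355 and 0.0865 FPKM without salt. Again no library with salt overlapped one without. It rose by 1.495 ± 0.23 in WT, just under the fold limit of 1.5, and by 1.21 ± 0.23 in h4.v KO (log2 scale, SE, n = 2 against 2; limma with Benjamini-Hochberg adjustment, adjusted p = 0.00436 and 0.0106). The difference between the genotypes' salt effects was -0.28 ± 0.32 and did not pass the test (limma, adjusted p = 0.582). Unlike Os04g0583600, it was above 0 in all 8 leaf libraries, at 0.111 to 0.819 FPKM.

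Of the 4 members with a mean of at least 1 FPKM in seedlings, 1 was called in WT with salt by the study's cut-offs (p under 0.05 and a log2 fold change over 1.5 in size). Higher calls made up 3.90% of the 16655 genes tested there. In h4.v KO 1 of 4 was called, where higher calls made up 2.88%. At an adjusted p under 0.05, 2 of 4 were higher in each genotype, beside 23.4% of all genes in WT and 16.1% in h4.v KO. Os04g0583600 and Os01g0835900 passed the minimum of 1 FPKM through the salt libraries alone, so their counts among tested genes are no evidence about the members as a list. In the fit of all genes above 0, with no minimum, their adjusted p was 0.000697 and 0.00392 in WT (limma, Benjamini-Hochberg). Their log2 fold changes do not depend on which other genes are fitted, so these were bound to stay the same.

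The lower members were tested only in that fit without a minimum. Os03g0119900 had 1.35 and 1.36 FPKM in WT seedlings with salt, against 0.289 and 0.117 FPKM without salt. In h4.v KO seedlings it had 1.25 and 2.00 FPKM with salt, against 0.300 and 0 FPKM without salt. It rose by 0.97 ± 0.20 in WT and by 1.19 ± 0.20 in h4.v KO (limma with Benjamini-Hochberg adjustment, adjusted p = 0.0154 and 0.00927). Os02g0684500 lay at 0.333 and 0.436 FPKM in WT with salt, against 0 and 0.106 FPKM without salt, and at 0.239 and 0.432 FPKM in h4.v KO with salt, against 0 in both libraries without salt. No value of Os02g0684500 rests on more than 3 fragments. In this fit it rose by 0.40 ± 0.093 in WT and by 0.41 ± 0.093 in h4.v KO (limma, adjusted p = 0.0260 in both). The share of all genes passing an adjusted p under 0.05 in this fit was not worked out. These results are therefore no evidence about the members as a list.

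Os07g0549900 had 0.389 and 0.341 FPKM in WT seedlings with salt, against 0.296 and 0.239 FPKM without salt, and 0.427 and 0.851 FPKM in h4.v KO with salt, against 0.154 and 0.148 FPKM without salt. It passed the adjusted test in h4.v KO (0.50 ± 0.13, limma, adjusted p = 0.0383) and not in WT (0.11 ± 0.13, adjusted p = 0.584), and the difference between them did not pass (limma, adjusted p = 0.232). The h4.v KO values of Os07g0549900 rest on only 8 fragments with salt and 2 without, so counting error is large there. Os05g0466600 stayed at or below 0.493 FPKM in every library and did not pass in either genotype. Os09g0433600 had 0.457 FPKM in 1 library of h4.v KO with salt and was listed at 0 in all 8 leaf libraries. In the other 7 seedling libraries it had no row of its own, only a longer assembled locus lying mostly outside it, which was not counted and entered as 0.

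Of the 9 members above 0 in seedlings, 6 had every salt library above every library without salt in both genotypes: Os01g0835900, Os02g0684500, Os03g0119900, Os04g0583600, Os07g0549900 and Os09g0553100. Os07g0549900 rests in WT on 4 fragments with salt and 4 without. Os09g0553100 enters in h4.v KO through 117 FPKM in replicate 1 without salt, whose locus covered 53.5% of the gene. Before weighting by that share this library had 218 FPKM, above the 188 and 201 FPKM of the libraries with salt. The same lack of overlap in both genotypes held for 18.6% of the 23028 genes above 0 in seedlings. It held for 7 members in WT, beside 35.7% of genes, and for 6 in h4.v KO, beside 28.1%. Together the 8 members other than Os09g0553100 and Os10g0539500 summed to 7.77 and 9.20 FPKM in h4.v KO with salt, against 1.14 and 0.754 FPKM without salt. In WT they summed to 9.06 and 9.48 FPKM with salt, against 1.19 and 0.532 FPKM without salt. None of these 8 genes took its value from an assembled locus in any library.

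**Figure D3:**
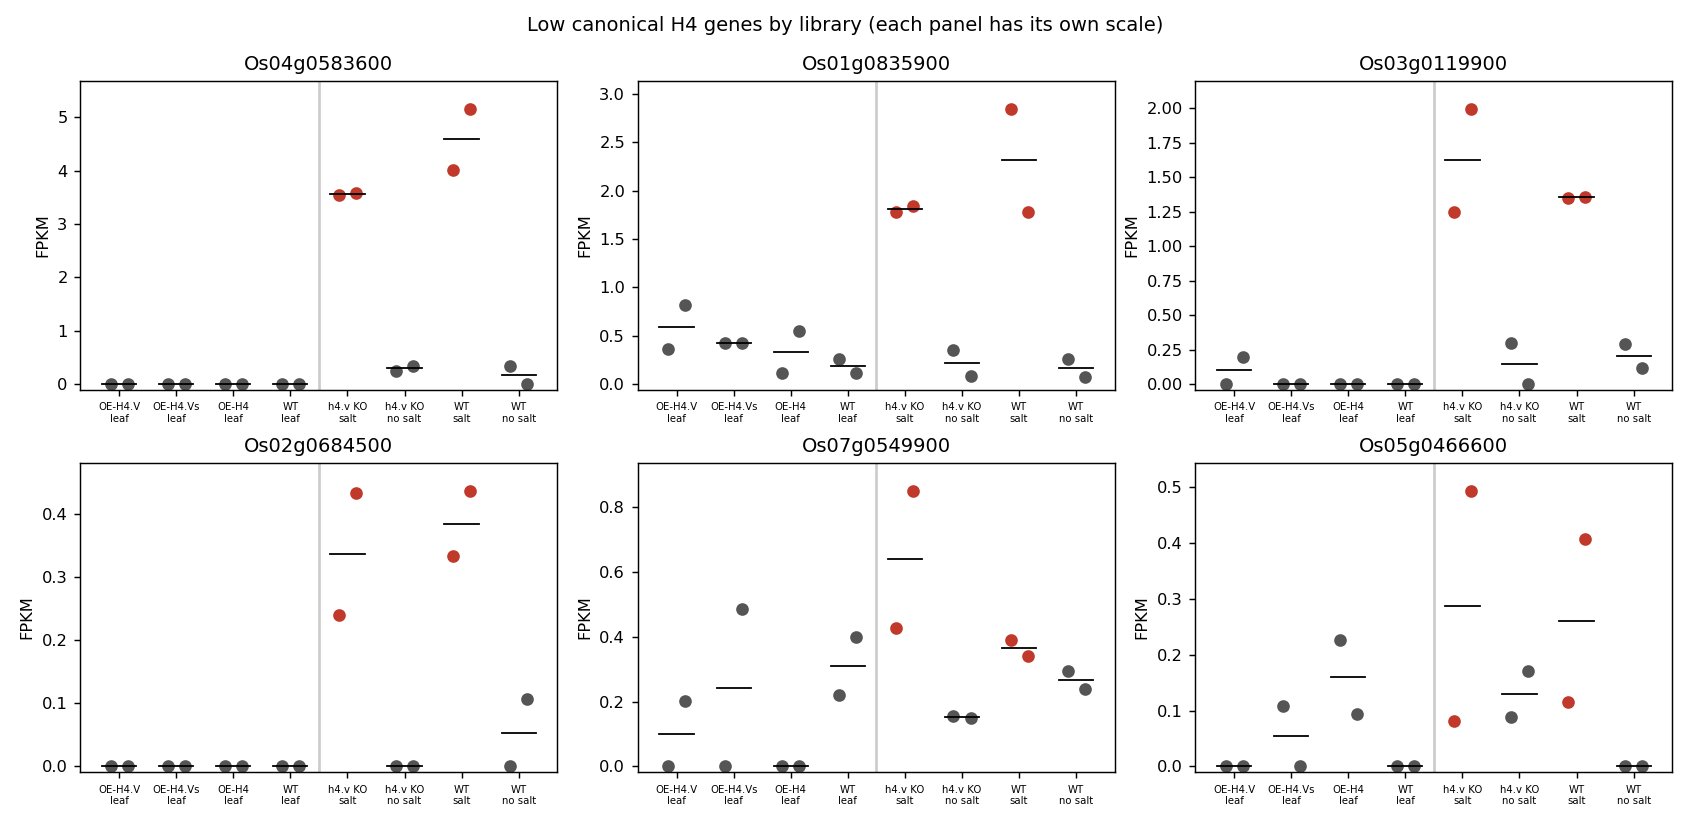
FPKM of 6 low canonical H4 genes by library, each panel on its own linear scale, with leaf groups left of the grey line and seedling groups right of it. Red points are libraries grown with 120 mM NaCl, grey points all others, and the bars are means of 2 libraries. Within each genotype, every library with salt lies above every one without for Os04g0583600, Os01g0835900, Os03g0119900, Os02g0684500 and Os07g0549900, but not for Os05g0466600. The same held for 18.6% of the 23028 genes above 0 in seedlings.

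Neither of the 2 abundant members passed the test with salt. Os09g0553100 differed by 4.24 ± 1.78 between WT with and without salt, with a 95% interval from -0.23 to 8.71 (limma with Benjamini-Hochberg adjustment, adjusted p = 0.112). Without WT seedling replicate 2 the difference was 1.34, and without replicate 1 it was 7.14 and passed the cut-offs (limma, adjusted p = 0.000423). It also passed them when genes under loci lying mostly outside them were left out, at 4.24 with an adjusted p of 0.0831, and came to 0.42 when 80% of a locus had to fall inside its gene. In h4.v KO it differed by 0.40 ± 1.78 with salt (limma, adjusted p = 0.885). Os10g0539500 differed by -2.16 ± 2.42 in WT and by -2.59 ± 2.42 in h4.v KO, with adjusted p = 0.517 and 0.444 (limma), and its direction turned when 1 library was left out in either genotype, and in both under the 80% rule. For both genes the replicates of at least 1 of these groups lay on either side of the gap.

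The knockout comparison asked whether canonical H4 genes change when H4.V is lost. None of the 4 members tested passed between h4.v KO and WT seedlings grown without salt, where 6.44% of all genes were called. Os04g0583600 differed by 0.16 ± 0.20 and Os01g0835900 by 0.066 ± 0.23, with 95% intervals from -0.34 to 0.65 and from -0.50 to 0.64. Os09g0553100 differed by 3.84 ± 1.78, from 117 and 185 FPKM in h4.v KO against 75.9 and 0.382 FPKM in WT (limma with Benjamini-Hochberg adjustment, adjusted p = 0.177). Os10g0539500 differed by 3.49 ± 2.42, from 124 and 120 FPKM in h4.v KO against 71.3 and 0.648 FPKM in WT (adjusted p = 0.345). The 95% intervals of these abundant genes, from -0.62 to 8.31 and from -2.59 to 9.57, do not exclude large changes. WT seedling replicate 2 listed the assembled locus of neither Os09g0553100 nor Os10g0539500. Without that library the differences were 0.95 and 0.76, and without WT seedling replicate 1 they were 6.74 and 6.22, the first of which passed the cut-offs. When 80% of a locus had to fall inside its gene, both directions turned, to -3.37 and -0.36.

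With salt, none of the 4 members tested passed between h4.v KO and WT either, where 1.15% of all genes were called. Os09g0553100 lay at 188 and 201 FPKM in h4.v KO with salt, against 198 and 190 FPKM in WT with salt, and all 4 values came from assembled loci. The difference in Os04g0583600 was -0.29 ± 0.20, with a 95% interval from -0.78 to 0.21 (limma, adjusted p = 0.524), and that in Os01g0835900 was -0.22 ± 0.23, from -0.79 to 0.35 (adjusted p = 0.676). Os10g0539500 differed by 3.07 ± 2.42, a value that rests on the single library of h4.v KO with salt that listed its assembled locus. For the genotype by salt interaction 0 of 4 members were called, beside 7.67% of all genes. At an unadjusted p under 0.05, 0 of 4 passed in each of these 3 comparisons as well, beside 39.5% of all genes for h4.v KO against WT, 16.5% for the same with salt and 35.1% for the interaction.

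The leaf comparisons asked what over-expression of H4.V, H4.Vs or H4 does to the canonical genes. Os09g0553100 was higher in all 3 OE lines than in WT leaves, by 6.41 ± 0.44 in OE-H4.V, by 6.16 ± 0.44 in OE-H4.Vs and by 6.02 ± 0.44 in OE-H4 (log2 scale, SE, n = 2 against 2; limma with Benjamini-Hochberg adjustment, adjusted p = 0.000946, 0.00114 and 0.00102). The 95% intervals ran from 5.33 to 7.49, from 5.08 to 7.24 and from 4.93 to 7.10. The 3 comparisons share the same WT leaf libraries. The OE-H4 construct holds an H4 coding sequence and the OE-H4.Vs construct holds the C-terminal part of one. Whether reads of these transgenes were assigned to Os09g0553100 was not tested, so its values there may not be those of the gene itself. Over all genes the median difference was 0.037 in OE-H4.V, 0.088 in OE-H4.Vs and 0.16 in OE-H4, and under median-of-ratios scaling Os09g0553100 came to 6.40, 6.08 and 5.85. All 6 OE values came from assembled loci with 772 to 1403 fragments, and both WT values came from the annotated row, so the kind of row cannot be told apart from the groups here. With a requirement that 80% of a locus fall inside the gene, none of the 6 loci counted, all 6 OE libraries were at 0, and the gene was no longer tested in leaves. The calls therefore rest on loci that begin 147 to 153 bp before the annotated gene.

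Os10g0539500, the only other member with a mean of at least 1 FPKM in leaves, had 1.05 and 2.34 FPKM in OE-H4.V, 1.23 and 2.87 FPKM in OE-H4.Vs and 1.11 and 0.786 FPKM in OE-H4, against 1.49 and 1.85 FPKM in WT leaves. All 8 values came from the annotated row, with 6 to 14 fragments each. It differed from WT by -0.024 ± 0.37 in OE-H4.V, 0.14 ± 0.37 in OE-H4.Vs and -0.45 ± 0.37 in OE-H4, and did not pass in any line (limma, adjusted p = 0.993, 0.886 and 0.428). So 1 of 2 tested members was called higher in each OE line, beside 2.78% of 13468 genes in OE-H4.V, 3.37% in OE-H4.Vs and 4.60% in OE-H4. The 8 other members summed to 0.337 to 1.22 FPKM in the OE leaves, against 0.483 and 0.517 FPKM in WT leaves.

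No difference between OE lines passed the test for these genes. Os09g0553100 differed by 0.39 ± 0.44 between OE-H4.V and OE-H4, with a 95% interval from -0.69 to 1.48 (limma, adjusted p = 0.643), and by 0.15 ± 0.44 between OE-H4.Vs and OE-H4, from -0.94 to 1.23 (adjusted p = 0.905). Its replicates in OE-H4.Vs, at 201 and 547 FPKM, enclosed both other lines. The locus of the lower of them covered 54.0% of the gene and had 371 FPKM before it was weighted by that share. Os10g0539500 differed by 0.43 ± 0.37 and 0.60 ± 0.37 in the same comparisons (limma, adjusted p = 0.547 and 0.443). Of all genes, 2.70% were called between OE-H4.V and OE-H4 and 2.47% between OE-H4.Vs and OE-H4. Neither member passed an unadjusted p under 0.05 there (limma, 0 of 2 in both), beside 19.0% and 17.3% of all genes.

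**Figure D4:**
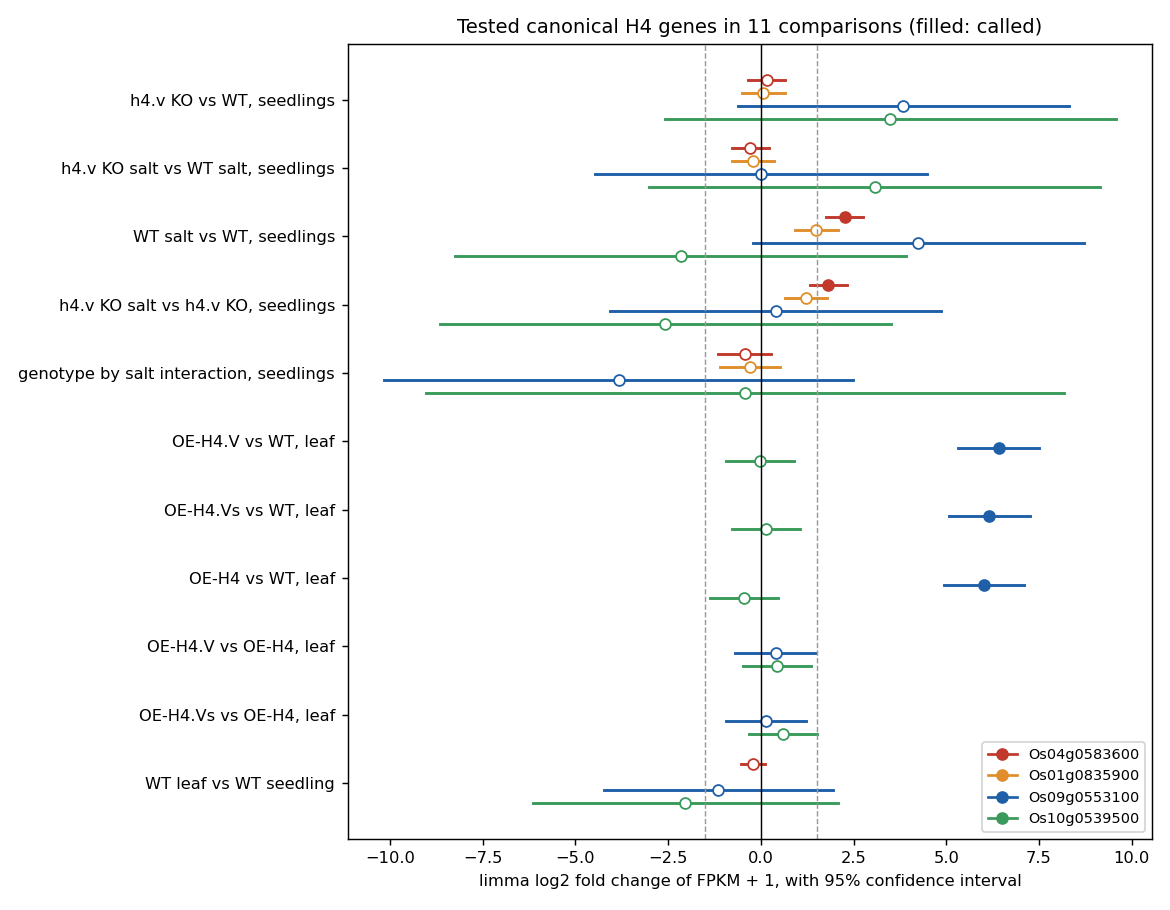
Log2 fold change of FPKM + 1 (horizontal) for the canonical H4 genes tested in 11 comparisons (rows), with 95% confidence intervals from limma. Filled points passed an unadjusted p under 0.05 and the fold limit of 1.5, marked by dashed lines. Only Os04g0583600 with salt and Os09g0553100 in the 3 OE lines against WT leaves are filled, and the intervals of Os09g0553100 and Os10g0539500 in seedlings span up to 17.2 units.

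WT leaves and WT seedlings without salt differ in tissue, age and growth place at once, so these cannot be told apart. None of the 3 members tested over all 16 libraries passed, where 29.9% of 16157 genes were called, and 0 of 3 had an unadjusted p under 0.05 (limma), beside 61.9% of all genes. Os09g0553100 had 3.38 and 3.92 FPKM in WT leaves, against 75.9 and 0.382 FPKM in WT seedlings, a log2 difference of -1.15 ± 1.38 (limma, adjusted p = 0.507). Os10g0539500 had 1.49 and 1.85 FPKM in WT leaves, against 71.3 and 0.648 FPKM in WT seedlings, a difference of -2.03 ± 1.84 (adjusted p = 0.374). WT leaf values lay between the 2 seedling replicates for both genes. Without WT seedling replicate 2 the differences were -4.05 and -4.76 and both genes were called, and without replicate 1 they were 1.75, also called, and 0.69. Os04g0583600 was listed at 0 in WT leaves and had 0.347 and 0 FPKM in WT seedlings.

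The genes whose levels most resembled the summed H4 level were Os01g0879100, Os01g0827400, Os05g0209500, Os12g0553050 and Os02g0518400, for which the tables give no product. Their Pearson r with the log2 sum was 0.970, 0.863, 0.859, 0.856 and 0.852 over the 16 libraries. Os01g0879100 had 10.3 to 24.5 FPKM in all libraries with a high H4 sum except WT seedling replicate 1, where it had 6.22 FPKM, and was at 0 in exactly the 3 libraries with a low sum. It was listed at 0 in both WT leaf libraries, and in WT seedling replicate 2 it had no row of its own, only a longer locus, mostly outside it, that was not counted. It also overlaps another annotated gene, so its level is uncertain. Over the 13 libraries with a high sum, r was 0.709 for Os01g0879100, 0.772 for Os01g0827400 and 0.740 for Os12g0553050, but 0.401 for Os02g0518400 and -0.326 for Os05g0209500. The values of each point share a library and its depth. Os01g0827400 took its value from an assembled locus in all 16 libraries and Os01g0879100 in 1.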

How the data were processed

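Per the labels and the study's methods, the authors trimmed reads (Trimmomatic), aligned them (HISAT2, IRGSP1.0) and ran Cufflinks 2.2.1 separately on the libraries of a directional kit. The deposited tables give FPKM with confidence bounds. Versions of the other tools and the treatment of multi-mapped reads are not given in the sources used here. Bounds were read as 2 SD on each side, which gives the fragments behind a value, with counting error only.

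Rows lying at least 50% in a gene's span were weighted by the share of the span covered and their FPKM added. Of spans of at least 200 bp, 2363 inside a longer one and 3 identifiers with 2 spans were left out. Overlaps used BEDTools 2.31.1 and pandas 2.3.3. After adding 1 and taking log2, genes averaging at least 1 FPKM in the libraries fitted entered limma 3.58.1 under R 4.3.3 (eBayes with a trend, 1 mean per group). Calls (DEGs) needed p under 0.05 together with a log2 change exceeding 1.5 in size, the study's cut-offs. Adjusted p-values are limma's by Benjamini-Hochberg, across every gene in the fit. The fit was tested on simulated data.

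Alternatives were a pseudocount of 0.1, no minimum, a minimum of 5 FPKM, median-of-ratios scaling, 80% of the row in the gene, a plain sum, leaving out genes under loci lying mostly outside them, a replicate block, a fold limit of 1 and each library left out. All 10 members are named, with H4.V and the 5 other genes averaging at least 5 FPKM whose levels were closest to the summed level by Pearson r. The members and lists were chosen with earlier results of these data known. Lists of replication genes (16 identifiers) and tissue markers (9 identifiers) were not used, because the reference table annotated 0 of them, and the tissue labels were not checked. Sequences of the members were not used here.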

Additional observations from a re-analysis of the deposited data

Results flagged for a closer look

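Os09g0433600 had signal in rows that entered no comparison. In 7 seedling libraries an assembled locus of 1635 to 1699 bp overlapped the gene at 0.666 to 2.21 FPKM, from 10 to 51 fragments. Only 27.6 to 28.7% of each locus lay in the gene, so it was not counted, and no control for such loci exists. In the same libraries the gene had no annotated row of its own.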

How the results depend on the processing

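Of 147 recomputed counts of called members, 131 equalled the reported count. With salt, 2 members were called in each genotype at a pseudocount of 0.1 and at a fold limit of 1, and 0 at a minimum of 5 FPKM, where the low members were not tested. With genes under loci lying mostly outside them left out, 2 were called in WT with salt. With 80% of a locus required in the gene, 0 members were called in each OE line against WT leaf. Leaving out 1 library at a time gave 1 to 3 members for WT with salt, 0 to 1 for h4.v KO against WT, 0 to 1 for the interaction and 0 to 2 for WT leaf against WT seedling. Where this leaves 1 library in a group, it is assumed to vary like the others.

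Directions turned only for values that had not passed. With 80% of a locus required, Os09g0553100 came to -3.37 for h4.v KO against WT and -3.79 for the same with salt. Os10g0539500 came to -0.36 for h4.v KO against WT, 0.92 for WT with salt, 4.35 for h4.v KO with salt, 3.43 for the interaction and 1.05 for WT leaf against WT seedling. With a plain sum Os09g0553100 came to -0.046 for h4.v KO with salt. With 1 library left out, Os10g0539500 ran from -4.89 to 0.56 for WT with salt, -5.48 to 0.30 for h4.v KO with salt, -3.31 to 2.47 for the interaction, -0.37 to 0.33 for OE-H4.V, -0.25 to 0.54 for OE-H4.Vs and -4.76 to 0.69 for WT leaf against WT seedling. Os09g0553100 ran from -0.041 to 0.053 for h4.v KO against WT with salt, -0.57 to 0.87 for OE-H4.Vs against OE-H4 and -4.05 to 1.75 for WT leaf against WT seedling. For h4.v KO against WT, Os04g0583600 ran from -0.058 to 0.37 and Os01g0835900 from -0.093 to 0.23. Beyond the libraries left out, the cause was not tested.

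The calls of Os04g0583600 with salt kept their direction and threshold wherever it was tested, at 2.05 to 4.46 in WT and 1.76 to 3.23 in h4.v KO. Same-numbered replicates did not deviate together (correlations from -0.028 to 0.025 in seedlings and -0.028 to 0.087 in leaves). A replicate block changed no count of called members, and for WT with salt 1938 genes were called in all against 1955. Every group holds both replicate numbers, so the block can change the error of a log2 fold change but cannot move its value. Each group had 2 libraries, and counting error alone is large for the low members, several of whose values rest on 3 or fewer fragments.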
